A study of Homo sapiens with 8 samples.

Results

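Divergent promoter transcripts are RNAs that start close to the start of another gene and run away from it on the opposite strand. Gene catalogues name such a transcript after its neighbour with the ending -DT, so that NCK1-DT is the divergent transcript of NCK1, called its partner here. The table of levels held 34415 rows, of which 448 had a symbol ending in -DT. Of these, 368 were above 0 in at least 1 library and 80 were at 0 in every library. The 50 described below (11.2% of the 448) were selected on their measured level, a mean of at least 1 FPKM over all 8 libraries, whatever the group. FPKM counts fragments per kilobase of a gene's length, scaled to the total of the library, so that levels of genes of unlike length can be set side by side. The 3 rows just inside this limit were RSL1D1-DT (mean 1.001 FPKM), DCAF8-DT (1.017 FPKM) and TOLLIP-DT (1.033 FPKM). The 3 just outside it were MAP4K3-DT (0.9824 FPKM), PAXIP1-DT (0.9701 FPKM) and CAMSAP1-DT (0.9669 FPKM).

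The cells were TeloHAEC, an immortalised line made from human aortic endothelial cells, with the labelled genotype WT. All 8 libraries came from cells given palmitic acid (PA), a saturated fatty acid, to imitate conditions that favour atherosclerosis. In 4 libraries (control replicates 1 to 4) nothing else was named, and in the other 4 (estradiol replicates 1 to 4) the female hormone estradiol was supplied as well. Groups were read from the sample titles, which give PA to all 8 and estradiol to the second group. The treatment field of the labels differs: it reads Control for the first group and PA-supplied for the second, and names no estradiol. Every estradiol value below therefore holds only as far as the titles are right. No dose or time is given in the sources used here. Nothing says that the replicates were separate cultures, so a p-value speaks only of how far these libraries spread, which may be technical. A single line also means that any difference holds for this line alone. Of 10 endothelial markers, 9 had a mean of at least 1 FPKM (VWF did not), and their summed level was 459 to 648 FPKM in the control and 462 to 609 FPKM in the estradiol libraries. Of the macrophage markers, 1 of 5 (CD68) reached 1 FPKM (summed 33.4 to 45.3 and 31.1 to 42.8 FPKM) and PTPRC, LYZ and CSF1R were below 0.1 FPKM. Of the epithelial markers, 3 of 5 (KRT8, KRT18, KRT19) reached it (79.9 to 124 and 81.6 to 110 FPKM), with EPCAM and CDH1 below 0.1 FPKM, and none of 5 fibroblast markers did (summed at most 0.24 and 0.253 FPKM). Between 33421051 (estradiol replicate 2) and 39899258 reads per library (control replicate 4) lay in genes. Control replicate 3 and estradiol replicate 4 stood apart from the other 6 libraries on the first principal component, which held 68.7% of the variance.

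Most active promoters of human cells lie in CpG islands and fire in both directions. The RNA made upstream is usually short-lived, because early polyadenylation sites and a shortage of U1 snRNP binding sites end it soon and the nuclear exosome, brought by adapters such as the NEXT and PAXT complexes, degrades it. Some of these transcripts are spliced and stable enough to be counted as long noncoding RNAs, and a few are known by function, while for most no role is established.

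In the RefSeq annotation (GRCh38.p14, a build that may not be the one the authors used) 38 of the 50 pairs had a start for both genes, and all 38 pairs lay on opposite strands. In 35 pairs the starts faced away from each other, with a median of 171 bases between starts. The distance was under 500 bases in 32 pairs and under 1000 bases in 34, and it was 16956 bases for GARS1-DT. In the other 3 (PGLS-DT, MMADHC-DT and DCAF8-DT) the -DT start lay inside the partner. For 25 pairs the stretch between both starts could be read from the RefSeq promoter windows, and it was 35 to 238 bases long. These shared stretches had a median GC content of 71.7% and a median of 16 CpG dinucleotides. The 6 shown belong to the transcripts on which the results below turn, namely the 2 highest (RAB30-DT, UBA6-DT), a pair at nearly equal levels (C2orf74-DT) and 3 with the smallest unadjusted p-values between the groups (NCK1-DT, ZC3H12A-DT, USP46-DT). Each is printed 5′ to 3′ on the partner's strand, so that the -DT transcript starts just left of the first base and runs left, and the partner starts just right of the last base. Capitals mark any of 4 motifs, each searched on both strands. The GC box was searched as GGGCGG. The core bound by ETS factors was searched as CCGGAAG. The NRF1 core was searched as TGCGCA, and the CCAAT box by the letters of its name.
RAB30-DT and RAB30, chr11:83071898-83072065, minus strand: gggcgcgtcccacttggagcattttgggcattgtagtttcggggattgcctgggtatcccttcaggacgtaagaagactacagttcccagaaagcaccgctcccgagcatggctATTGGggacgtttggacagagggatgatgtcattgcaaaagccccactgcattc
UBA6-DT and UBA6, chr4:67701156-67701277, minus strand: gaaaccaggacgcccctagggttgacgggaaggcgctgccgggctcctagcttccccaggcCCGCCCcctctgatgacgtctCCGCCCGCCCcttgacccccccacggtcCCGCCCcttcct
C2orf74-DT and C2orf74, chr2:61144976-61145115, plus strand: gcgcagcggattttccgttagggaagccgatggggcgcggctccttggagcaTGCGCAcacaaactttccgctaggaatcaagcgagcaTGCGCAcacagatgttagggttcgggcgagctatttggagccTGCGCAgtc
NCK1-DT and NCK1, chr3:136862064-136862207, plus strand: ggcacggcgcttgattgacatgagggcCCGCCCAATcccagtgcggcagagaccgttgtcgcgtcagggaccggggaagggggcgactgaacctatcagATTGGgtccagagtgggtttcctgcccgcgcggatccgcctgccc
ZC3H12A-DT and ZC3H12A, chr1:37474444-37474579, plus strand: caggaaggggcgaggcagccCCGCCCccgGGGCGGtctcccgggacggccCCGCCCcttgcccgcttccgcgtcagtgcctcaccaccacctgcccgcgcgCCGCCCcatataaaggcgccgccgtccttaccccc
USP46-DT and USP46, chr4:52659302-52659405, minus strand: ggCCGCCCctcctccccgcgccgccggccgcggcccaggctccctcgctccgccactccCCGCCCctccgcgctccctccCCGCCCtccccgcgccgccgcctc

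The stretches differ in make-up. That of USP46-DT had the highest GC content of the 25 (87.5%) with 3 GC boxes, and that of RAB30-DT the lowest (54.2%) with a single CCAAT box and 7 CpG. UBA6-DT and ZC3H12A-DT had 4 GC boxes each, of which a pair overlaps in UBA6-DT. C2orf74-DT had no GC box and 3 NRF1 cores, and NCK1-DT had a GC box that overlaps the first of its 2 CCAAT boxes. Over the 25 stretches a GC box was found in 16, a CCAAT box in 8, an ETS core in 5 and an NRF1 core in 5.

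In base composition and in the share of windows with each of the first 6 motifs below, the -DT windows lay nearer to those of the tested genes than to those of all genes. RefSeq windows of 300 bases (250 before and 50 after the start) were found for 39 of the 50. Their median GC content was 69.7% and their median CpG number 31, against 68.2% and 31 for 42 partners, 65.3% and 27 for the 8746 tested genes with a window, and 58.3% and 14 for all 27305 genes of the table of windows. A GC box was in 69.2% of the -DT windows, 71.4% of the tested genes' and 44.6% of all windows. An ETS core was in 25.6%, 21.3% and 10.7%, and an NRF1 core in 20.5%, 14.5% and 8.42%. A CCAAT box was in 38.5%, 37.3% and 35.7%, and a TATA box (TATAAA) in 7.69%, 5.09% and 12%. The short core of a cAMP response element (TGACG) was in 41%, 35.8% and 25.0%. The palindromic estrogen response element (GGTCANNNTGACC) was in none of the 39, in 1 tested gene's window and in 0.0659% of all windows, so its absence says only that these letters are not in these windows. Neighbouring windows of a pair share bases, and no test was made.

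The 50 transcripts were of low and mostly steady level. Their median level was 1.67 FPKM, against 8.84 FPKM for the 10720 genes with a mean of at least 1 FPKM. A mean of 1 to 2 FPKM was found for 29, 2 to 5 FPKM for 17 and above 5 FPKM for 4, and 36 were at 1 FPKM or more in every library. Between 6 and 748 reads lay behind a value, with a median of 122. The coefficient of variation over the 8 libraries had a median of 17.7%, against 15.1% for the 5912 tested genes no higher than the highest of the 50. It was under 30% in 43 and over 50% in 4, which are described further down.

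**Figure D1:**
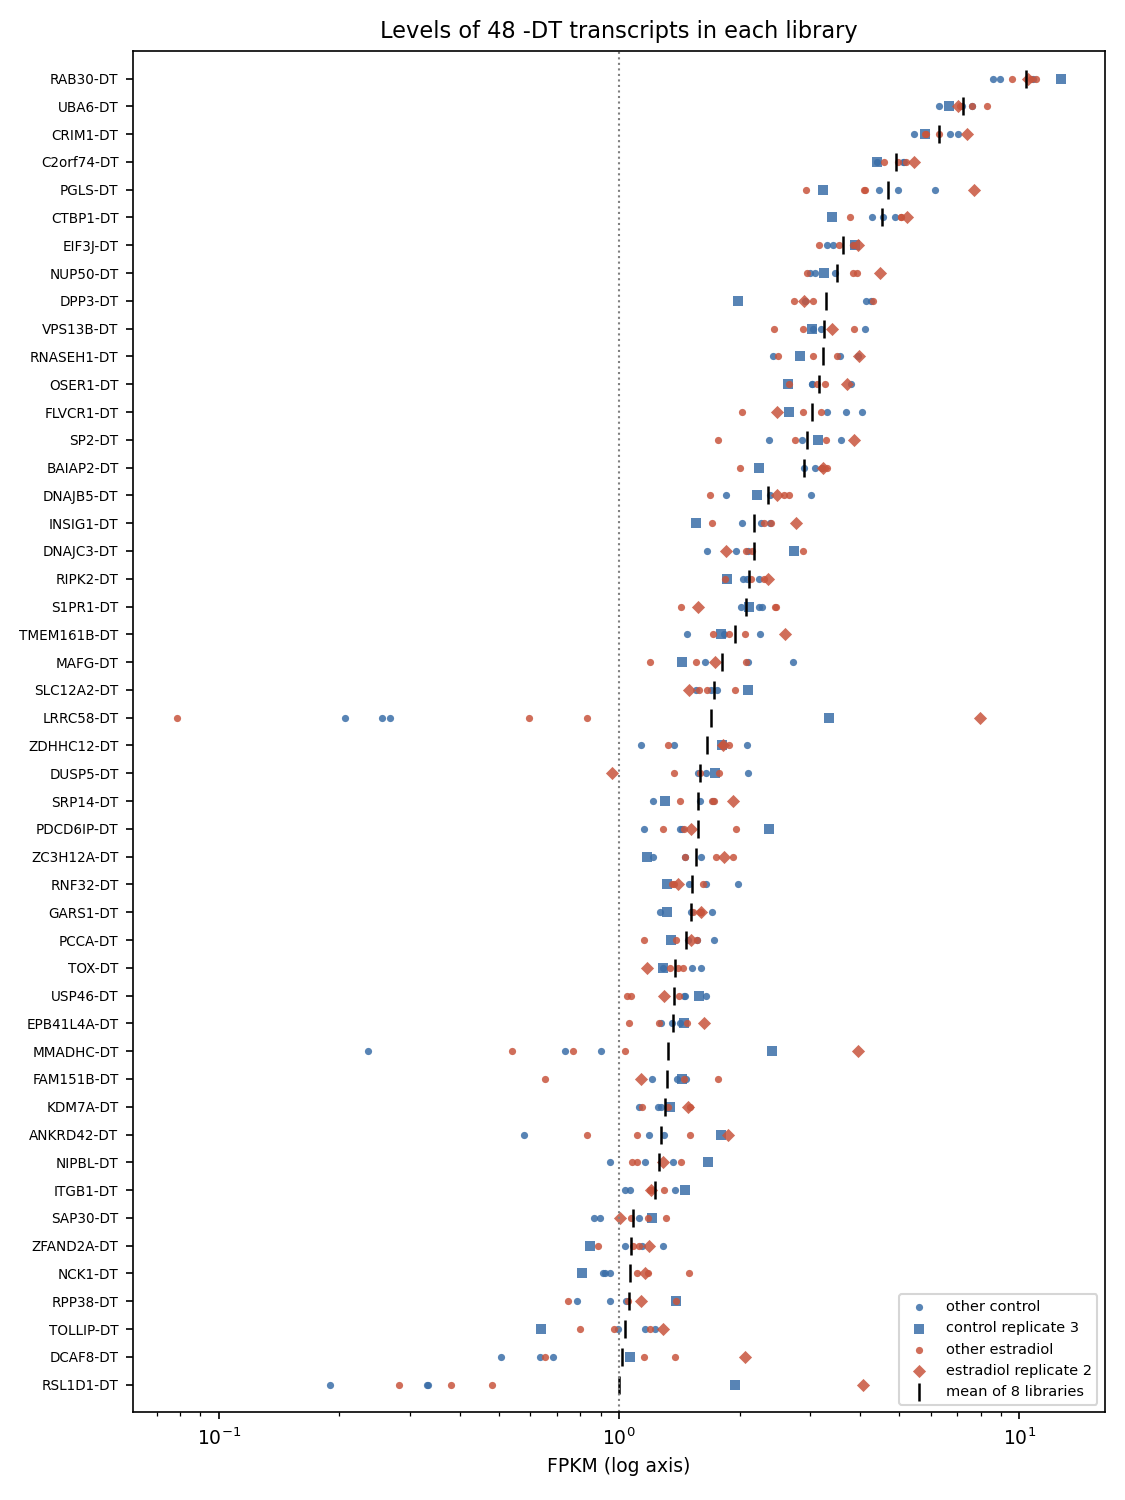
FPKM (log axis) of 48 of the 50 transcripts, ordered by mean, with each library as a point and the mean as a vertical tick; the dotted line marks 1 FPKM. Most rows are tight, while LRRC58-DT, MMADHC-DT and RSL1D1-DT spread widely, with estradiol replicate 2 highest and control replicate 3 next.

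RAB30-DT was the highest, at 10.8, 8.60, 12.7 and 8.94 FPKM in the control and 9.58, 10.5, 10.7 and 11 FPKM in the estradiol libraries. Its groups overlapped, and the highest value was in control replicate 3. RAB30 encodes a small GTPase of the Golgi. UBA6-DT followed at 6.29, 7.61, 6.68 and 7.21 against 7.61, 7.03, 8.28 and 7.10 FPKM, beside UBA6, an activating enzyme for ubiquitin. CRIM1-DT (5.46 to 7.39 FPKM over all libraries) came next, beside a gene for a membrane protein that binds bone morphogenetic proteins. C2orf74-DT was the steadiest of the 50, at 5.14, 4.41, 4.41 and 5.11 against 4.59, 5.44, 4.99 and 5.19 FPKM, a coefficient of variation of 7.92%. EIF3J-DT (3.16 to 3.94 FPKM), beside a subunit of translation initiation factor eIF3, had one of 8.26%, and CTBP1-DT (3.41 to 5.23 FPKM), beside a transcriptional corepressor, one of 14.61%. PGLS-DT, beside an enzyme of the pentose phosphate pathway, ranged more widely from 2.93 FPKM in estradiol replicate 4 to 7.72 FPKM in estradiol replicate 2.

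A row existed for the partner of each of the 50, and 48 partners had a mean of at least 1 FPKM. The partner was the higher of the pair in 42 of 50, in every one of the 8 libraries in 40, and over 10 times higher in 18. The median partner stood at 13.0 FPKM, and the median ratio of partner to -DT transcript was 5.95. The partner means ran from 0.1085 FPKM (RNF32) to 306 FPKM (ITGB1), while the -DT means ran from 1.001 to 10.36 FPKM.

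**Figure D2:**
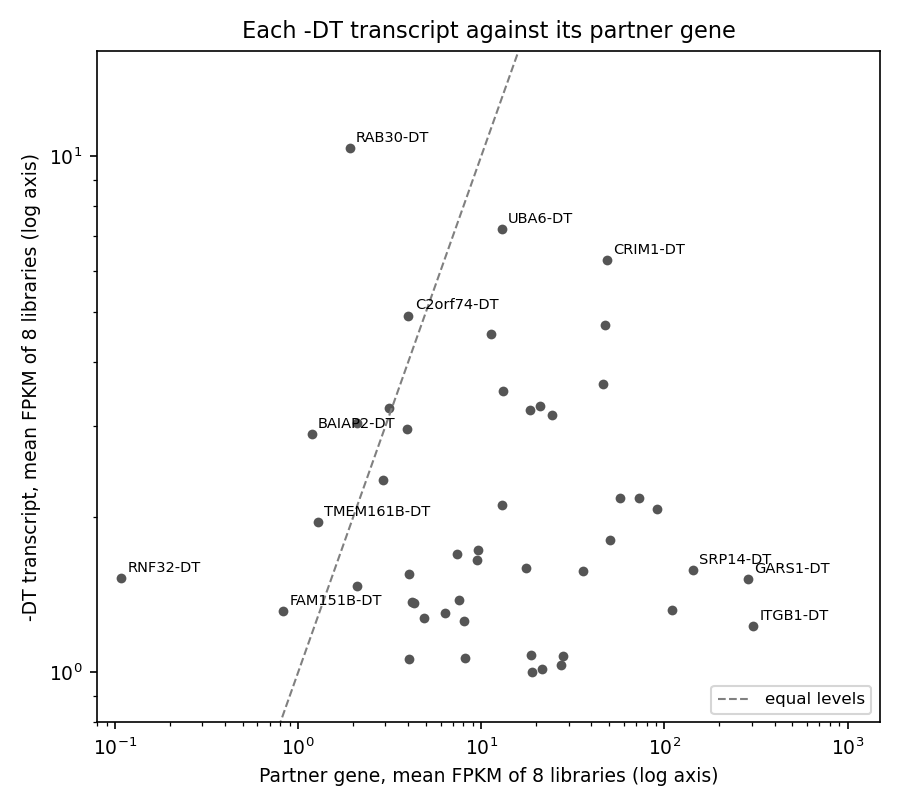
Mean FPKM of 48 of the 50 -DT transcripts (vertical, log axis) against that of its partner gene (horizontal, log axis) over 8 libraries; the dashed line marks equal levels. The 8 points left of the line are the pairs in which the -DT transcript was higher, with RNF32-DT and RAB30-DT farthest from it.

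In 8 pairs the -DT transcript was the higher one. RAB30-DT exceeded RAB30 by 5.409 times, the partner lying between 1.47 and 2.61 FPKM. BAIAP2-DT (2.00 to 3.31 FPKM) exceeded BAIAP2 (0.808 to 1.52 FPKM), a gene for a membrane-bending adaptor of the actin skeleton, by 2.441 times. TMEM161B-DT (1.48 to 2.60 FPKM) exceeded TMEM161B (0.989 to 1.76 FPKM) by 1.529 times. These 3 and RNF32-DT were above their partners in all 8 libraries. RNF32-DT stood at 1.98, 1.49, 1.32 and 1.65 against 1.37, 1.40, 1.36 and 1.62 FPKM, while RNF32 was at 0.0878 to 0.136 FPKM, a ratio of 14.05. FAM151B-DT (0.653 to 1.77 FPKM) exceeded FAM151B (0.590 to 1.21 FPKM) by 1.579 times in the mean. The other 3, FLVCR1-DT (ratio 1.454), C2orf74-DT (1.226) and VPS13B-DT (1.037), were also higher in the mean.

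The 5 pairs with the lowest ratio had partners among the well expressed genes of these cells. ITGB1-DT (1.03 to 1.46 FPKM) stood beside ITGB1, the beta 1 integrin, at 273 to 374 FPKM, so that the partner was 249 times higher. GARS1-DT (1.27 to 1.71 FPKM) stood beside GARS1, the glycyl-tRNA synthetase, at 271 to 316 FPKM (189.5 times). SRP14-DT (1.22 to 1.93 FPKM) stood beside SRP14, a protein of the signal recognition particle, at 134 to 151 FPKM (90.36 times). MMADHC-DT stood beside MMADHC, a protein of vitamin B12 handling, at 92.9 to 143 FPKM (83.38 times). S1PR1-DT (1.42 to 2.47 FPKM) stood beside S1PR1, the sphingosine 1-phosphate receptor of endothelial cells, at 86.1 to 93.7 FPKM (43.89 times). The RNA was bulk, so fewer cells with a transcript and less of it per cell cannot be told apart.

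Estradiol against control was the comparison of the study. On log2(FPKM + 1), limma with Benjamini-Hochberg adjustment over 10720 genes called none of the 50 transcripts, none of the 48 partners tested and no gene at all (0.0% called; smallest adjusted p 0.999989). At an unadjusted p under 0.05 limma had 26 genes, 12 higher (0.112%) and 14 lower (0.131%) with estradiol. That is far below the share of 0.05 expected on average where no gene changes. Without control replicate 3, a library that stood apart, there were 183 such genes of the 10720, also below that share. The count thus moved with a single library, and the lack of calls does not show that no gene changed. Of the 50 transcripts 4 were at an unadjusted p under 0.05 by limma (8.0%), 3 higher and 1 lower, and of the partners none. The choice of members bears on this count: 4 of the 50 had a control mean under 1 FPKM, NCK1-DT and DCAF8-DT among them, and were members only through the estradiol libraries, while none had an estradiol mean under 1 FPKM. Of the 46 with both group means at 1 FPKM or more, 1 was higher and 1 lower at an unadjusted p under 0.05 by limma. The 50 had a median log2 fold change of 0.0246 with a range from -0.282 to 0.439, 29 above 0 and 21 below. The partners had a median of 0.0215 with a range from -0.124 to 0.15, and all tested genes a median of -0.0005. The median half-width of the 95% interval was 0.265 for the 50 on the log2(FPKM + 1) scale, which understates changes of transcripts as low as these. The number at an unadjusted p under 0.05 by limma moved with single libraries. It was 2 without control replicate 1, 2 or 4 or estradiol replicate 2, 0 without estradiol replicate 3, 3 without estradiol replicate 1, 4 without control replicate 3 and 5 without estradiol replicate 4. Over all 10720 genes the number was 15, 17, 183 and 24 without control replicate 1, 2, 3 or 4. Without estradiol replicate 1, 2, 3 or 4 it was 17, 27, 15 and 84 of all genes.

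**Figure D3:**
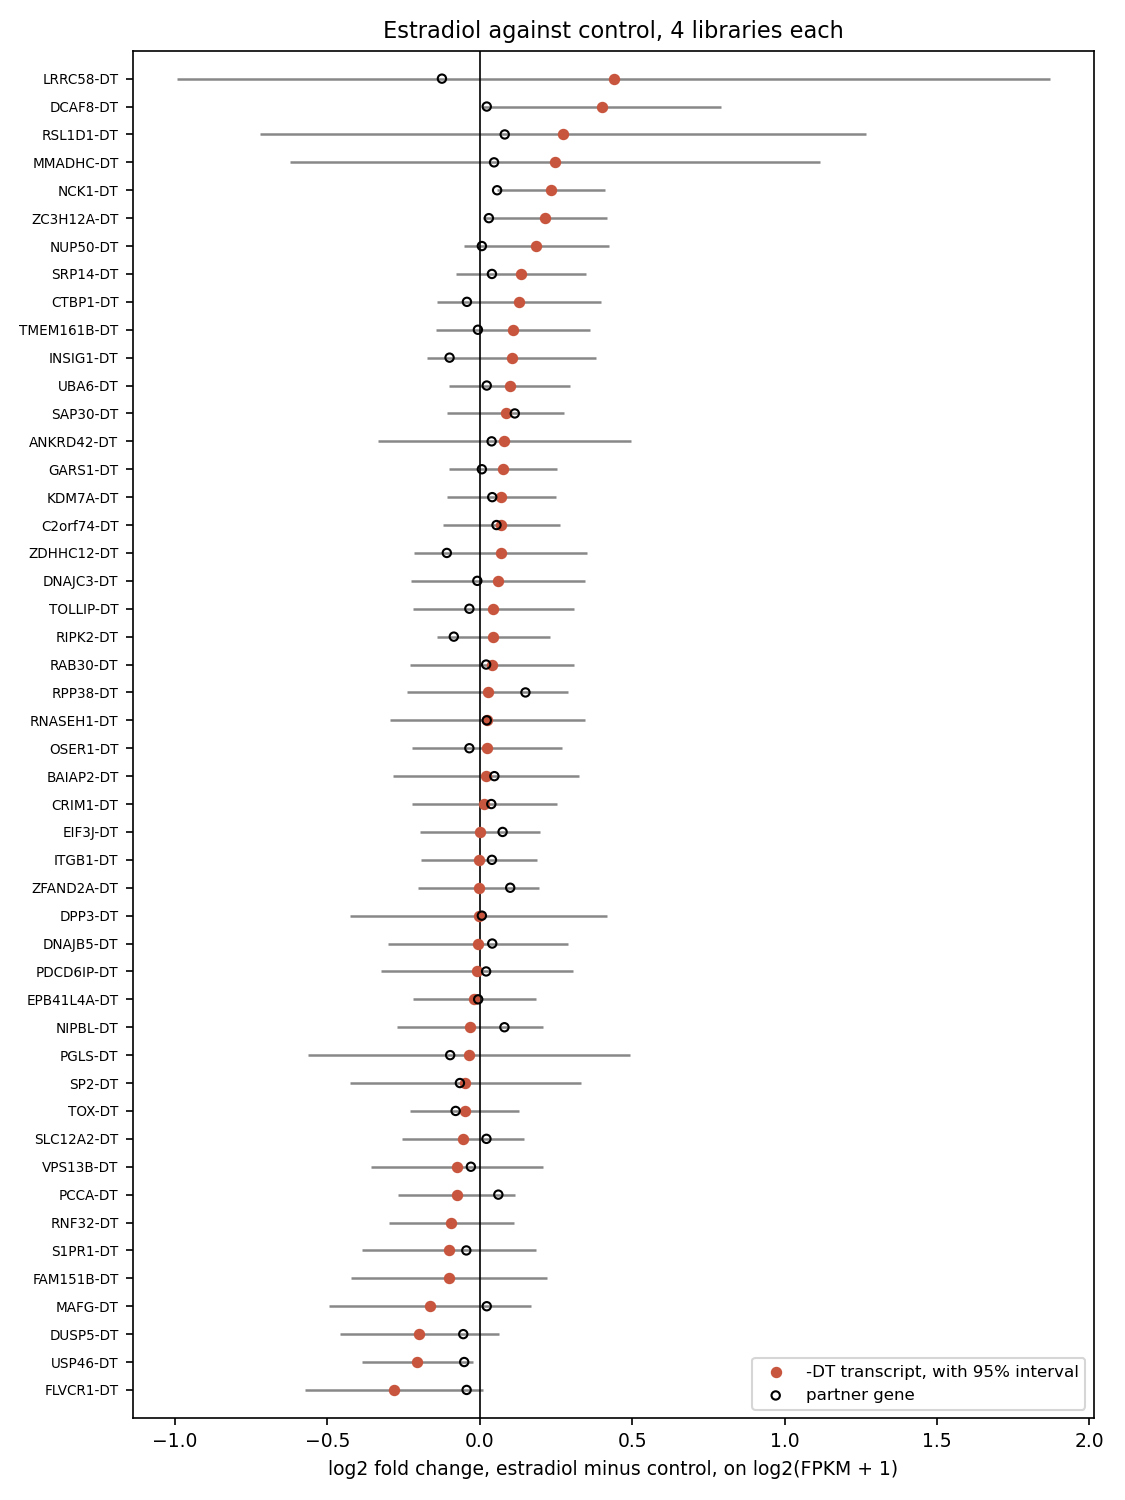
Log2 fold change of estradiol against control for 48 of the 50 transcripts (filled points, with 95% intervals from limma) and of the partner genes tested (open points), ordered by value. The intervals of NCK1-DT, ZC3H12A-DT, DCAF8-DT and USP46-DT leave out 0 before adjustment, and none was called.

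Of the transcripts on the higher side, NCK1-DT had the smallest p, with a control mean under the limit that chose the members. It stood at 0.920, 0.911, 0.808 and 0.949 FPKM in the control and 1.18, 1.16, 1.5 and 1.11 FPKM in the estradiol libraries, from 36 to 70 reads. Every estradiol library was above every control library, which was so for 1 of the 50 and for 33 of the tested genes (0.308%). The group means were 0.8971 ± 0.06176 and 1.236 ± 0.1769 FPKM (SD, n = 4 each), and limma gave a log2 fold change of 0.234 (SE 0.079) with an unadjusted p of 0.0147 and an adjusted p of 0.999989. The log2 fold change was 0.415 with a pseudocount of 0.1 and 0.451 by limma-voom on recovered reads. In RefSeq the span of NCK1-DT overlaps the coding gene SLC35G2, at a mean of 6.67 FPKM. Whether reads were counted by strand is not given, and the part of this overlap in the values was not tested. NCK1 itself, an adaptor that links phosphotyrosines to the actin skeleton, was at 7.96 ± 1.591 and 8.372 ± 2.043 FPKM (SD, n = 4 each), with overlapping groups.

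ZC3H12A-DT stood at 1.60, 1.46, 1.18 and 1.21 against 1.75, 1.82, 1.92 and 1.46 FPKM, a log2 fold change of 0.214 (SE 0.091, limma, unadjusted p 0.0412), or 0.334 and 0.352 in those 2 other settings. Estradiol replicate 4 lay within the control range. Its partner ZC3H12A encodes an RNase that degrades messenger RNAs of inflammation, and was at 3.99 ± 0.8896 and 4.056 ± 0.5631 FPKM (SD, n = 4 each). DCAF8-DT stood at 0.507, 0.684, 1.06 and 0.635 against 1.15, 2.06, 1.38 and 0.654 FPKM, a log2 fold change of 0.40 (SE 0.175, limma, unadjusted p 0.0457), or 0.724 and 0.773 in those settings. Its control mean of 0.7221 FPKM was also under the limit, so that its place among the 50 came from the estradiol libraries. Its highest value was in estradiol replicate 2, without which the log2 fold change was 0.254, and its values rest on 11 to 38 reads. DCAF8, a substrate receptor of a ubiquitin ligase, differed by 0.023 on the log2 scale.

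Also on that side, NUP50-DT stood at 3.199 ± 0.2059 and 3.805 ± 0.6355 FPKM (SD, n = 4 each), beside the gene of a nuclear pore protein. SRP14-DT stood at 1.458 ± 0.2378 and 1.696 ± 0.2086 FPKM. The groups overlapped in both.

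On the lower side USP46-DT had the smallest p. It stood at 1.65, 1.46, 1.58 and 1.46 FPKM in the control and 1.04, 1.29, 1.07 and 1.41 FPKM in the estradiol libraries, from 36 to 57 reads. Every estradiol library was below every control library, which was so for 1 of the 50 and for 24 of the tested genes (0.224%), though the closest values were 1.46 and 1.41 FPKM. The group means were 1.537 ± 0.09484 and 1.205 ± 0.1766 FPKM (SD, n = 4 each), and limma gave a log2 fold change of -0.205 (SE 0.081) with an unadjusted p of 0.0308 and an adjusted p of 0.999989. It was -0.335 with a pseudocount of 0.1 and -0.358 by limma-voom. With a replicate block limma gave an unadjusted p of 0.0556 for NCK1-DT, 0.0774 for ZC3H12A-DT, 0.0238 for DCAF8-DT and 0.0928 for USP46-DT. By limma-voom 1 of the 50 transcripts was at an unadjusted p under 0.05, in place of 4. USP46, a deubiquitinating enzyme, was at 4.267 ± 0.5855 and 4.076 ± 0.4282 FPKM (SD, n = 4 each).

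FLVCR1-DT had the lowest fold change of the 50, at 4.05, 3.31, 2.66 and 3.70 against 3.19, 2.48, 2.89 and 2.03 FPKM, a log2 fold change of -0.282 (SE 0.131, limma, unadjusted p 0.057). The groups overlapped through control replicate 3. FLVCR1, a transporter of the cell membrane, was at 2.139 ± 0.4809 and 2.04 ± 0.3961 FPKM (SD, n = 4 each), so that it was below its divergent transcript in both groups. DUSP5-DT, beside a nuclear phosphatase of ERK, was at 1.765 ± 0.2316 and 1.425 ± 0.3511 FPKM. MAFG-DT, beside a small MAF transcription factor, was at 1.974 ± 0.5719 and 1.64 ± 0.3644 FPKM. RNF32-DT was at 1.61 ± 0.2808 and 1.439 ± 0.124 FPKM, and PCCA-DT, beside a subunit of propionyl-CoA carboxylase, at 1.532 ± 0.1562 and 1.405 ± 0.1853 FPKM (SD, n = 4 each). The groups overlapped in all 4.

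The balance within the pairs, taken on log2(FPKM + 1), differed little between the groups in the median. The log2 ratio here is log2(FPKM + 1) of the -DT transcript minus that of its partner. It was higher with estradiol in 27 of 50 pairs, with a median difference of 0.017 and a range from -0.239 to 0.563. The added 1 weighs most on the lower gene of a pair, so these values are not ratios of FPKM, and changes of low transcripts are understated. By library the median log2 ratio was lowest in control replicate 3 (-2.263) and estradiol replicate 4 (-2.363), the pair of libraries that stood apart on the first principal component, and between -2.144 and -1.955 in the other 6. Of the 48 partners, 13 (27.1%) had their highest value in control replicate 3 and 14 (29.2%) in estradiol replicate 4, beside 18.2% and 22.1% of all tested genes.

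Genes of the machinery known to limit such transcripts were followed through a list of 55 genes of nuclear RNA decay and early termination. All 55 were tested, with means between 1.96 and 47.8 FPKM. By limma 0 were called and 0 were at an unadjusted p under 0.05, where 0.112% and 0.131% of all tested genes were in the higher and the lower direction. The median log2 fold change was 0.0221 with 38 of 55 above 0, beside 5308 of 10720 for all tested genes. It was 0.0414 for 22 genes of the nuclear exosome and its adapters, 0.0285 for 16 genes of restriction and termination, 0.0032 for 14 subunits of the Integrator complex, which cleaves nascent RNA, and 0.0338 for 3 proteins of the U1 snRNP. INTS14, an Integrator subunit, had the smallest p, at 14.35 ± 1.09 and 13.23 ± 0.825 FPKM (SD, n = 4 each). CSTF3, a cleavage stimulation factor, was at 21.7 ± 2.40 and 24.0 ± 4.02 FPKM, and the exosome cofactor MPHOSPH6 at 6.92 ± 2.31 and 7.72 ± 1.06 FPKM. EXOSC2, a core subunit of the exosome, was at 4.72 ± 0.379 and 5.06 ± 0.504 FPKM, and the groups overlapped in all 4.

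Estradiol replicate 2 was looked at apart, as a description of a single library with no test. Of the 50 transcripts 19 had their highest value there (38.0%), against 12.1% of all tested genes and 14.6% of the 48 partners. Among tested rows named as antisense RNAs by -AS it was 42.1% of 171, and among those named as long intergenic RNAs by LINC 9.09% of 55. On log2(FPKM + 1), the median deviation of this library from the median of the other 7 was 0.093 for the 50, 0.128 for the -AS rows, -0.046 for the LINC rows and -0.001 for all tested genes. This scale understates deviations of low rows, such as most of the 50, more than those of higher genes. The library was over 1.5 times the highest of the other 7 in 3 of the 50 (6.0%), in 32 of the -AS rows (18.7%), in no LINC row, in no partner and in 90 tested genes (0.84%). The level that chose the members includes this library, so part of these shares comes from the choice. Among the 44 -DT rows with a mean of at least 1 FPKM over the other 7 libraries, 14 were highest in estradiol replicate 2 (31.8%) and none was over 1.5 times the next. Chosen in that way, 37.9% of 161 -AS rows and 11.7% of 10682 genes were highest there, and 13% and 0.487% were over 1.5 times the next.

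**Figure D4:**
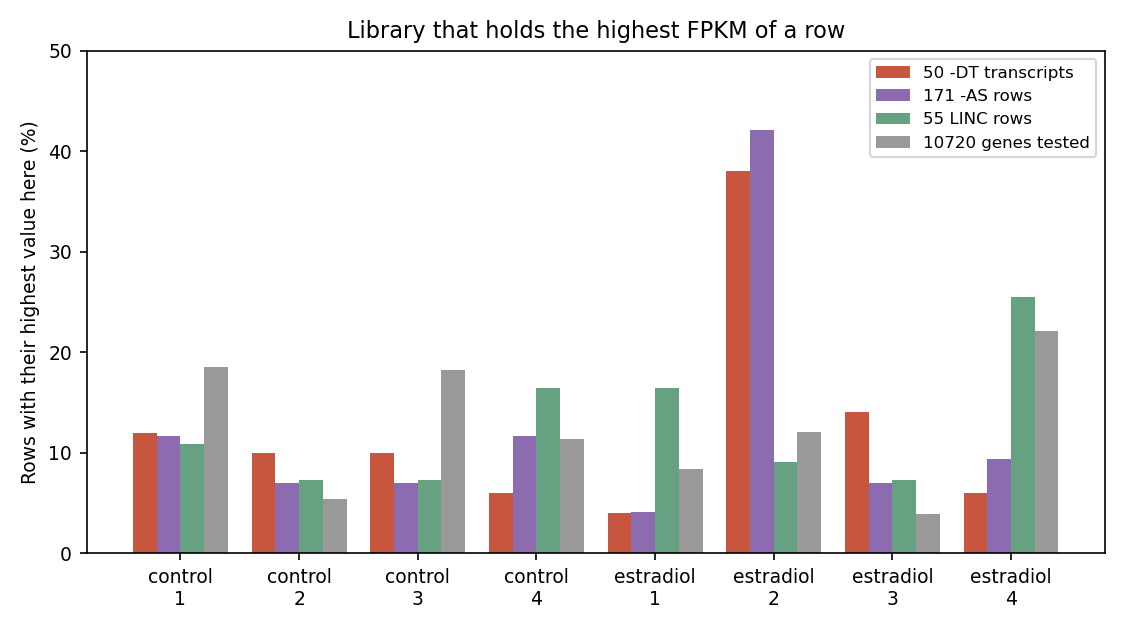
Percentage of rows whose highest FPKM lies in each library, as bars from 0, for the 50 -DT transcripts, 171 -AS rows, 55 LINC rows and all 10720 tested genes. The -DT and -AS bars stand at 38.0% and 42.1% in estradiol replicate 2, where all genes stand at 12.1%.

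The 3 were LRRC58-DT, MMADHC-DT and RSL1D1-DT, each of which was a member only through this library. LRRC58-DT stood at 0.207, 0.256, 3.35 and 0.268 FPKM in the control and 0.831, 7.97, 0.595 and 0.0788 FPKM in the estradiol libraries, from 6 to 523 reads. MMADHC-DT stood at 0.236, 0.731, 2.42 and 0.902 against 1.04, 3.96, 0.767 and 0.539 FPKM, from 8 to 114 reads. RSL1D1-DT, beside a nucleolar protein gene, stood at 0.190, 0.333, 1.95 and 0.331 against 0.381, 4.06, 0.482 and 0.282 FPKM, from 13 to 236 reads. In all 3, estradiol replicate 2 was highest and control replicate 3 second, and both stood above the other 6 libraries. DCAF8-DT, given above, was also highest in estradiol replicate 2, by 1.491 times over the next library. The partners LRRC58 (5.98 to 10.6 FPKM), MMADHC (92.9 to 143 FPKM) and RSL1D1 (17.2 to 22 FPKM) were not highest in that library. The next in order were PGLS-DT, 1.258 times its next highest library, and TMEM161B-DT, 1.156 times.

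**Figure D5:**
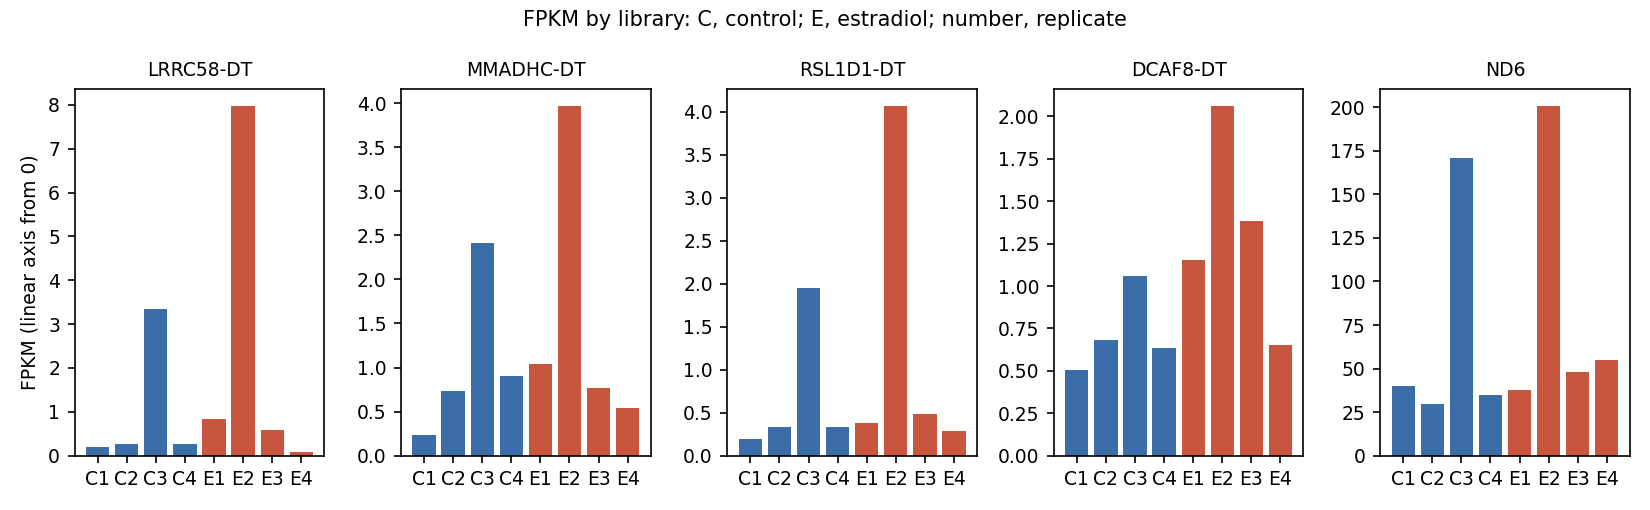
FPKM by library (bars from 0, each panel with its own linear axis) for LRRC58-DT, MMADHC-DT, RSL1D1-DT, DCAF8-DT and the mitochondrial gene ND6. In the first 3 panels and for ND6, control replicate 3 and estradiol replicate 2 stand above the other 6 libraries.

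Some values moved with this pattern, and their part in it was not tested. ND6, the only protein gene on its strand of mitochondrial DNA, stood at 39.72, 29.53, 170.9 and 35.08 FPKM in the control and 37.77, 200.5, 48.0 and 55.06 FPKM in the estradiol libraries, highest in the same 2 libraries. ND5 on the other strand was at 693 to 1123 FPKM, with 962.4 FPKM in estradiol replicate 2. RefSeq lists LRRC58-DT as a synonym of the transcribed pseudogene BTNL12P, whose span overlaps FSTL1, a secreted glycoprotein gene at 134.1 to 156.4 FPKM, and the spans of MMADHC-DT and DCAF8-DT overlap their partners. Of the 49 transcripts matched to RefSeq (45 by symbol and 4 by a synonym, LRRC58-DT among the latter, RSL1D1-DT unmatched), 14 overlapped a protein-coding gene of at least 1 FPKM. Of these 14, 8 were highest in estradiol replicate 2, with a median log2 deviation of 0.185, and 2 were over 1.5 times the highest of the other 7. Of the 35 that overlapped none, 10 were highest there, with a median log2 deviation of 0.048, and 0 were over 1.5 times. This split was chosen after the values were seen, and whether reads were counted by strand, which would separate overlapping genes on opposite strands, is not given in the sources used here.

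Estradiol replicate 2 also set part of the membership. Without it 6 of the 50 fell under a mean of 1 FPKM, among them RSL1D1-DT (0.564 FPKM), LRRC58-DT (0.798 FPKM), DCAF8-DT (0.868 FPKM), MMADHC-DT (0.947 FPKM) and TOLLIP-DT (0.997 FPKM), and no other -DT row reached it. The fold changes of LRRC58-DT, MMADHC-DT and RSL1D1-DT turned sign without this library, from 0.439, 0.246 and 0.273 to -0.214, -0.126 and -0.196 on the log2 scale. Summed over the 50, the level was 120.3 ± 2.56 FPKM in the control and 125.3 ± 15.1 FPKM in the estradiol libraries (SD, n = 4 each), with 145.9 FPKM in estradiol replicate 2 and 109.6 FPKM in estradiol replicate 4. Without the 3 transcripts the sums were 117.5 ± 3.11 and 120.0 ± 8.7 FPKM, with 129.9 FPKM in estradiol replicate 2.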

How the data were processed

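RNA of 8 TeloHAEC libraries was sequenced, 4 control and 4 estradiol. Per the labels' protocols, total RNA was taken with TRIzol and libraries were made with a VAHTS Universal V10 kit. The authors deposited 1 table of FPKM values, 1 column for each library and 1 row for each symbol. The submitters' processing notes name fastp 0.20.1 and HTSeq. Aligner, build, annotation and strand setting: not given in the sources used here. FPKM steps gave whole reads for 152348 values (100.0%, relative tolerance 1e-06), hence the depth of each library.

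Groups were compared with limma 3.58.1 (R 4.3.3, lmFit and eBayes with trend, two-sided) on log2(FPKM + 1), on which fold changes of low genes are understated, over 10720 genes with a mean of at least 1 FPKM, with Benjamini-Hochberg adjustment at 0.05. The fit was tested on simulated data. Named were the 8 highest transcripts, 6 per direction with the smallest p, the 6 with most excess in estradiol replicate 2, the 5 highest and 5 lowest ratios to the partner, 3 on each side of the 1 FPKM limit, partners of these and 4 decay genes. Of the named, 2 are not reported here. Members and lists were chosen with earlier results of these data known. Promoter windows came from RefSeq (GRCh38.p14). Alternatives were other pseudocounts, filters and scalings, no trend, a replicate block, each library left out, the 6 and 5 libraries without those that stood apart, and limma-voom on recovered reads; the last 3, and the counts over 46 and 44 of the transcripts, were chosen after seeing the data.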

Additional observations from a re-analysis of the deposited data

Results flagged for a closer look

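In 10 of 56 groups of 4 libraries examined, a single library lay far from the other 3 by Dixon's criterion. The groups were the control and estradiol libraries of 28 named transcripts. Chance meets the criterion in about 1 in 20 groups, but that rate cannot judge this count. Some transcripts, LRRC58-DT, MMADHC-DT and RSL1D1-DT among them, were named for their excess in estradiol replicate 2. The groups also reuse the same libraries, so they are not independent. Control replicate 3 was far above the rest in LRRC58-DT (3.35 FPKM, others 0.207 to 0.268) and RSL1D1-DT (1.95 FPKM, others 0.190 to 0.333). Estradiol replicate 2 was far above in LRRC58-DT (7.97 FPKM, others 0.0788 to 0.831), MMADHC-DT (3.96 FPKM, others 0.539 to 1.04) and RSL1D1-DT (4.06 FPKM, others 0.282 to 0.482). Estradiol replicate 4 was below the rest in BAIAP2-DT (2.0 FPKM, others 3.21 to 3.31) and CTBP1-DT (3.77 FPKM, others 5.05 to 5.23), and above in RNF32-DT (1.62 FPKM, others 1.36 to 1.40). In GARS1-DT estradiol replicate 1 was low (1.53 FPKM, others 1.59 to 1.60) and in ITGB1-DT estradiol replicate 3 was high (1.30 FPKM, others 1.2), where the other 3 lay very close together.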

How the results depend on the processing

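By limma no gene, -DT transcript, partner or decay gene was called under any alternative run, and the medians moved by less than their spread over libraries. With each library left out in turn the median log2 fold change was -0.02 to 0.044 for the -DT transcripts and -0.026 to 0.035 for the partners, and the median change in log2 ratio over the 48 pairs with a tested partner was -0.029 to 0.072. The number of -DT transcripts at an unadjusted p under 0.05, 4 as reported, was 5 with median-of-ratios or quantile scaling (28 and 32 of all genes). It was 2 with no filter (437 of 23471 genes) and 0 of 4 tested with a filter at 5 FPKM (4 of 7221 genes). It was 1 by limma-voom on recovered reads. It was 9 when control replicate 3 and estradiol replicate 4 were both left out, leaving 6 libraries (416 of all genes), and 8 in the 5 also without estradiol replicate 2 (324 of all genes). Without control replicate 3 alone all genes gave 183, and without estradiol replicate 4 alone 84, in place of 26. Deviations of same-numbered libraries from their group means correlated at 0.616, 0.073, -0.478 and -0.737. Control replicate 3 and estradiol replicate 4, the libraries that stood apart, correlated at 0.791. Both enter the group means behind these deviations, so this check cannot tell whether the replicate numbers pair the libraries. With a replicate block limma called 0 genes, and 2 of the -DT transcripts were at an unadjusted p under 0.05, beside 11 of all 10720 genes.

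Fold changes of named transcripts kept their sign under an alternative in 438 cases and turned in 41. Those that turned are given here, none of them called, and the cause was not tested. With single libraries left out the log2 fold changes ran from -0.06 to 0.147 for BAIAP2-DT, -0.052 to 0.066 for CRIM1-DT, -0.033 to 0.051 for EIF3J-DT, -0.209 to 0.039 for FAM151B-DT, -0.046 to 0.047 for ITGB1-DT, -0.214 to 0.89 for LRRC58-DT, -0.126 to 0.52 for MMADHC-DT, -0.261 to 0.123 for PGLS-DT, -0.032 to 0.138 for RAB30-DT, -0.196 to 0.573 for RSL1D1-DT and -0.049 to 0.108 for TOLLIP-DT. ITGB1-DT was 0.003 with a pseudocount of 0.1 and with quantile scaling and 0.006 by limma-voom, and EIF3J-DT -0.005 with quantile scaling and -0.001 by limma-voom. In the 6 libraries FAM151B-DT and ITGB1-DT were 0.051. In the 5 libraries C2orf74-DT was -0.022, CRIM1-DT -0.063, EIF3J-DT -0.057, FAM151B-DT 0.147, ITGB1-DT 0.061, S1PR1-DT 0.127, TMEM161B-DT -0.018 and TOLLIP-DT -0.031. Depth limits the lowest transcripts most, with as few as 6 reads behind a value.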
